A study of Mus musculus with 8 samples.

Results

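The genes described here encode the SR proteins and the heterogeneous nuclear ribonucleoproteins (hnRNPs) of mouse embryonic stem cells. They were taken by symbol, as every Srsf gene with a number and every gene starting with Hnrnp, leaving out 3 symbols that mark pseudogenes. All 31 of the candidate symbols had at least 10 reads in at least 2 libraries, so 31 of the 55292 symbols in the count table were kept, 11 for SR proteins and 20 for hnRNPs. Poly(A)-selected RNA of E14 cells, a line of strain 129/Ola grown on gelatin with leukaemia inhibitory factor and serum, was sequenced, and reads were counted per gene. The groups were lncSmad7-/- E14 cells that by label received Smad7, an intracellular inhibitor of the TGF-beta pathway, by transfection (KO+Smad7), lncSmad7-/- E14 cells labelled untreated (KO), and wild-type E14 cells labelled untreated (WT), each with 2 libraries. The sample descriptions of the KO+Smad7 libraries name 24 h. Both knockout groups lack the long noncoding RNA lncSmad7 by label, and the number of knockout clones and a mock transfection were not given in the sources used here. Knockout cells given lncSmad7 back were not analysed here.

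SR proteins carry RNA recognition motifs and a tail rich in arginine-serine pairs. They bind enhancer sequences in exons, recruit the splicing machinery once their tails are phosphorylated, and some of them hand the mature mRNA to the export receptor. The hnRNPs coat nascent transcripts and often act in the opposite sense, by binding silencer sequences, although several also control nuclear retention, stability and translation. Both families are highly transcribed in dividing cells such as embryonic stem cells, and many members limit their own mRNA by splicing in an exon that sends the transcript to nonsense-mediated decay.

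Total counts lay between 13392941 and 20209760 per library. The deposited replicates are described as biological, with no word on separate cultures, so p-values reflect only the spread among these libraries, which may be technical. Smad7 stood at 93.8 and 99.4 CPM (reads scaled to a common library size) in KO+Smad7, 75.5 and 69.6 in KO and 97.6 and 97.7 in WT. In the edgeR test described below, Smad7 was higher in KO+Smad7 than in KO (log2 fold 0.41, SE 0.048, adjusted p = 3.2e-14). It was not higher in KO+Smad7 than in WT (log2 fold −0.014, SE 0.047, adjusted p = 0.79). The lncSmad7 feature had 167 and 207 reads in KO+Smad7, 140 and 105 in KO and 237 and 221 in WT. The KO libraries thus kept reads of lncSmad7 (log2 fold −1.05, SE 0.12, adjusted p = 3.0e-14 for KO against WT), although they are labelled lncSmad7-/-. The sources used here do not give the deleted bases. These reads go against a full loss of the transcript, and whether they lie outside a deletion was not tested, and each direction given for KO rests on the libraries labelled so. The lncSmad7 feature was also higher in KO+Smad7 than in KO (log2 fold 0.79, SE 0.13, adjusted p = 9.3e-09), which the label of Smad7 transfection does not name, and each direction given for KO+Smad7 rests on the libraries labelled so. All 7 embryonic stem cell markers were detected, with summed levels of 4998 and 4980 CPM in KO+Smad7, 6243 and 6367 in KO and 4005 and 4085 in WT. These sums were scaled by total counts alone, without the TMM factors (a correction for library composition) applied to the other CPM values. With TMM factors, in the edgeR test described below, 5 of the 7 were lower and 2 higher in KO+Smad7 than in WT (median log2 fold −0.24). Of all genes tested, 38.8% were lower and 43.1% higher there. All 7 were higher in KO than in WT (median 0.49), where 34.5% of all genes were higher. In KO+Smad7 against KO, 6 of the 7 were lower and none higher (median −0.62), where 36.8% of all genes were lower. The 6 primitive endoderm markers, all with reads and also scaled by total counts alone, summed to 14.6 and 14.8 CPM in KO+Smad7, 6.65 and 6.43 in KO and 90.8 and 85.5 in WT. Mitochondrial transcripts took 2.48% and 2.33% of counts in KO+Smad7, 1.40% and 1.37% in KO and 1.58% and 1.53% in WT. The part of these differences in the results that follow was not tested.

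Promoter sequence is shown for the hnRNP gene and the SR gene that fell most between KO+Smad7 and KO, Hnrnpab and Srsf9, and for Hnrnpa1. Like most of the 31 genes, these genes fell in every comparison. Each sequence is the 250 bases before the RefSeq transcription start (GRCm38.p6), in the direction of transcription. Hnrnpab lies on the minus strand (chr11:51606882-51607131), and Hnrnpa1 (chr15:103240147-103240396) and Srsf9 (chr5:115326927-115327176) lie on the plus strand. None of these windows holds an exon of the GENCODE release 21 annotation. Capitals mark CCAAT and GGGCGG, the core letters of the CCAAT box and the GC box, on either strand (ATTGG and CCGCCC on the other).
Hnrnpab: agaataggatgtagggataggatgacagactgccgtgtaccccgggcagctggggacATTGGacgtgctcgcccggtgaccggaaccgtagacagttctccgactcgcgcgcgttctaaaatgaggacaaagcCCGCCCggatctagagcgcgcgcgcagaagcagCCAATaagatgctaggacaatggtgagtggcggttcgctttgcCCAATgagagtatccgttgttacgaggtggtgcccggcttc
Hnrnpa1: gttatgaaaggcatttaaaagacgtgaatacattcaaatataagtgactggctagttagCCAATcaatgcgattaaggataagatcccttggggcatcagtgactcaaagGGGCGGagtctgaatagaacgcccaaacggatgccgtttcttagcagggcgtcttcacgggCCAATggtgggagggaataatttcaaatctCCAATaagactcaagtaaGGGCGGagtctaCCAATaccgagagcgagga
Srsf9: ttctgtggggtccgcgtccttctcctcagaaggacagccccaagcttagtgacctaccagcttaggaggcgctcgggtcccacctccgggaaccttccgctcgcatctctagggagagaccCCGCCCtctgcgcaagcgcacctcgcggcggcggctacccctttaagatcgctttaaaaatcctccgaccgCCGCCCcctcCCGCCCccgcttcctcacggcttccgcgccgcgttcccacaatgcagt
The Hnrnpab window holds 3 CCAAT matches and 1 GGGCGG match, the Hnrnpa1 window 4 and 2, and the Srsf9 window only GGGCGG, 3 times. The matches do not overlap each other. RefSeq windows were given for 29 of the 31 genes, and 23 of those have a single window. GGGCGG on either strand occurs in a window of 24 of the 29 genes (82.8%), against 35.4% of 27025 genes with a window. CCAAT occurs in 16 of the 29 (55.2%), against 37.5% of all genes. The palindrome CACGTG, the core of an E-box, occurs in 3 (10.3%), against 6.86%, and the TATA-like TATAAA in 3 (10.3%), namely Hnrnpm, Srsf2 and Srsf3, against 14.3%. A gene with several windows was counted once, and a letter match is not evidence of binding. The background holds every gene with a window, whether or not it had reads here. Genes of a like level were not compared, so these shares cannot be read as particular to the 2 families.

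Levels of different genes were compared only per length, as TPM (length-scaled counts in a library brought to a common total) computed from the counts and the exonic length. Averaged over the 6 libraries, hnRNP genes ranged from 18.2 TPM for Hnrnpr, a protein close to the mRNA-binding Syncrip, to 960.0 TPM for Hnrnpab. Hnrnpab encodes a CArG-box binding hnRNP, and it was followed by Hnrnpa1 (908 TPM), Hnrnpa2b1 (861 TPM) and Hnrnpc (634 TPM). SR genes ranged from 3.06 TPM for Srsf12 to 652 TPM for Srsf2, the SR protein also known as SC35 that marks nuclear speckles. Srsf7 (389 TPM), Srsf6 (376 TPM) and Srsf1 (373 TPM) came next. The order at the top was not the same in every group. Hnrnpab led the family in WT, at 1402 TPM against 1267 TPM for Hnrnpa1. In KO+Smad7, Hnrnpa2b1 stood at 777 TPM and Hnrnpa1 at 642 TPM, and Hnrnpab, at 428 TPM, also lay below Hnrnpk (476 TPM) and Hnrnpu (430 TPM).

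The summed transcript level of both families was lowest in KO+Smad7, intermediate in KO and highest in WT. In CPM scaled with TMM factors, which are used for all comparisons between libraries except the marker sums above, the 11 SR genes summed to 2149 and 2077 in KO+Smad7, 3038 and 2890 in KO and 4798 and 4557 in WT. The 20 hnRNP genes summed to 7359 and 7196 CPM in KO+Smad7, 11148 and 10744 in KO and 16265 and 16042 in WT. The groups do not overlap in either sum. The SR sum in KO was 0.634 times that in WT and the hnRNP sum 0.678 times, while in KO+Smad7 the sums were 0.713 and 0.665 times those in KO. Without any scaling, the 31 genes took 1.10% and 1.07% of all counts in KO+Smad7, 1.38% and 1.33% in KO and 1.85% and 1.82% in WT. In bulk RNA, fewer cells of a type and less RNA per cell cannot be told apart.

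**Figure D1:**
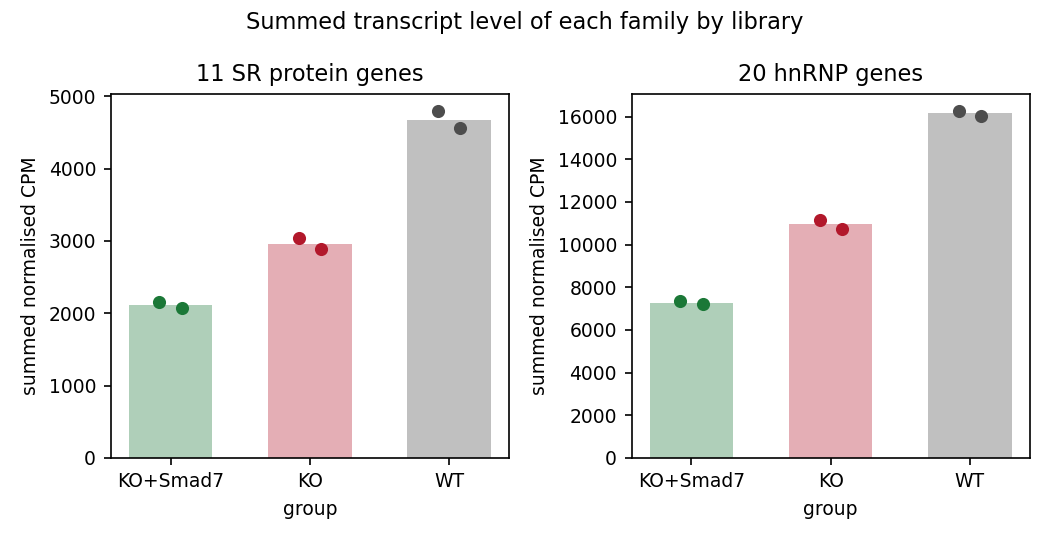
Summed normalised CPM of the 11 SR protein genes (left) and the 20 hnRNP genes (right) in KO+Smad7, KO and WT; points are the 2 libraries of a group and bars their mean. Both sums are lowest in KO+Smad7, at 2149 and 2077 CPM for SR genes and 7359 and 7196 CPM for hnRNP genes, and highest in WT.

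The comparison of KO with WT bears on the question of what differs between untreated cells labelled lncSmad7-/- and untreated wild-type cells. In edgeR's quasi-likelihood test with Benjamini-Hochberg adjustment over all 17342 genes tested, 10 of 11 SR genes were lower in KO, where 33.3% of all genes tested were lower. No SR gene was higher, where 34.5% of all genes were. An unadjusted p under 0.05 gave no higher SR gene either, and neither did DESeq2. Of 20 hnRNP genes, 18 were lower and 2 were higher, Hnrnph2 and Hnrnpul1. The median log2 fold was −0.60 for SR genes and −0.41 for hnRNP genes, beside 0.024 for all genes tested, and both medians remained below 0 under RLE scaling, library size scaling and offsets for GC content and length. Among the 2511 other genes with a mean of at least 100 CPM, a level nearer to that of most of these genes, 58.9% were lower and 28.04% higher in KO, with a median of −0.17.

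Among SR genes, Srsf10 fell most. It encodes a splicing repressor that acts when dephosphorylated, in mitosis and after heat shock, and stood at 159 and 142 CPM in KO+Smad7, 100.3 and 93.1 in KO and 249 and 241 in WT. The KO libraries hold the lowest values and the WT libraries the highest, with no overlap (log2 fold −1.34, SE 0.042, adjusted p = 2.4e-52). How many of all genes tested have groups without overlap was not counted. With 2 libraries per group, such separation is given here and below only as description, not as particular to these genes. Srsf3, the smallest SR protein and an adaptor for mRNA export, stood at 159 and 157 CPM in KO+Smad7, 295 and 282 in KO and 559 and 526 in WT. Its 3 groups are separate, and KO was 1.88-fold lower than WT (log2 fold −0.91, SE 0.036, adjusted p = 3.6e-53). Srsf1, the founding SR protein and a broad activator of exon inclusion, stood at 370.3 and 366 CPM in KO+Smad7, 573 and 515 in KO and 922 and 848 in WT (log2 fold −0.70, SE 0.039, adjusted p = 2.6e-25 for KO against WT). The KO values of Srsf1 lie far below the WT values and above those of KO+Smad7.

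The other classical SR genes followed in KO. Srsf7, an export adaptor like Srsf3, stood at 249.7 and 233 CPM in KO+Smad7, 367 and 355 in KO and 560.1 and 562 in WT, and its log2 fold in KO was −0.64 (SE 0.036, adjusted p = 3.8e-37). Srsf2 stood at 304 and 286 CPM in KO+Smad7, 544 and 526 in KO and 844 and 774 in WT (log2 fold −0.60, SE 0.036, adjusted p = 3.9e-32). In both genes the libraries of the 3 groups lie apart. Srsf5 (−0.70) and Srsf6 (−0.52), which like Srsf4 carry a second, atypical RNA recognition motif, and Srsf11 (−0.44), an SR protein that contacts the factors at the 3′ splice site, also fell. The falls of Srsf4 (−0.21, adjusted p = 0.0044) and of Srsf9, a close relative of Srsf1 with a short tail (−0.18, adjusted p = 3.3e-04), were small. Both missed the threshold under library size scaling, where the median of all genes moved to 0.17. Srsf4 also missed it under DESeq2 (adjusted p = 0.074), which called 9 SR genes lower, and without KO replicate 2 (adjusted p = 0.24) or WT replicate 2 (adjusted p = 0.054). Srsf12, a relative of Srsf10 with few reads, did not pass (log2 fold 0.39, SE 0.34, adjusted p = 0.32).

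Among hnRNP genes, Hnrnph1 fell most in KO. It encodes a protein that binds runs of guanines near splice sites, and it stood at 361 and 352 CPM in KO+Smad7, 304 and 298 in KO and 899 and 908 in WT. The WT libraries are 2.998-fold above the KO libraries (log2 fold −1.58, SE 0.036, adjusted p = 7.5e-84). Hnrnpr stood at 78.5 and 75.9 CPM in KO+Smad7, 97.5 and 92.3 in KO and 173 and 159.6 in WT (log2 fold −0.81, SE 0.043, adjusted p = 3.6e-39). Hnrnpa1, which binds exonic silencers and counters SR proteins, stood at 444 and 463 CPM in KO+Smad7, 748 and 713 in KO and 1243 and 1252 in WT (log2 fold −0.77, SE 0.035, adjusted p = 2.4e-47). In both genes the KO libraries lie between those of KO+Smad7 and WT, with no overlap. Hnrnpu, a nuclear scaffold protein that tethers RNA to chromatin, stood at 1164 and 1076 CPM in KO+Smad7, 1634 and 1546 in KO and 2742 and 2616 in WT (log2 fold −0.75, SE 0.035, adjusted p = 3.3e-42).

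Hnrnpa2b1, a relative of Hnrnpa1 that sorts and transports RNAs, stood at 1156 and 1139 CPM in KO+Smad7, 1490 and 1363 in KO and 2169 and 2125 in WT (log2 fold −0.59, SE 0.035, adjusted p = 2.2e-34). Hnrnpk, a cytosine-binding protein of transcripts and promoters, stood at 697 and 682 CPM in KO+Smad7, 1014 and 1001 in KO and 1337 and 1323 in WT (log2 fold −0.40, SE 0.034, adjusted p = 4.4e-22). Hnrnpc, which packages nascent transcripts by binding uridine tracts, stood at 419 and 408 CPM in KO+Smad7, 838 and 843 in KO and 1060 and 1079 in WT. All 3 genes have separate groups, and the KO values of Hnrnpc lie nearer to those of WT (log2 fold −0.35, SE 0.034, adjusted p = 7.5e-18). With offsets for GC content and length the log2 fold of Hnrnpc was −0.055 and no longer passed (adjusted p = 0.074).

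The other hnRNP genes that fell in KO were Hnrnpdl (−0.77), Hnrnpa3 (−0.72), Hnrnpab (−0.55), Hnrnpm (−0.51), Hnrnph3 (−0.42), Hnrnpd (−0.38), Hnrnpa0 (−0.31), Hnrnpll (−0.30), Hnrnpl (−0.20), Hnrnpul2 (−0.11) and Hnrnpf (−0.091), with log2 folds in brackets. Hnrnpd, also called AUF1, binds AU-rich elements and speeds mRNA decay, and Hnrnpdl is its near relative. Hnrnpl and Hnrnpll bind CA-rich sequence, and Hnrnpll is known for the splicing of Ptprc in lymphocytes. The fall of Hnrnpf (adjusted p = 0.044), a relative of Hnrnph1, missed the threshold when any single library was left out (adjusted p between 0.051 and 0.34). That of Hnrnpul2 missed it without KO replicate 2 (0.19) or WT replicate 1 (0.053). Under library size scaling both lay slightly above 0, at 0.053 for Hnrnpf and 0.036 for Hnrnpul2, without passing, and Hnrnpl missed the threshold (−0.056, adjusted p = 0.14). Hnrnpf also missed it under DESeq2 (adjusted p = 0.069), with no filter on low counts (0.16), with the filter of 1 CPM in 4 libraries (0.054) and with the 4 compared libraries alone (0.095).

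The 2 hnRNP genes above WT moved little. Hnrnph2, the X-linked copy of the Hnrnph1 gene, stood at 129 and 130.2 CPM in KO+Smad7, 144 and 138 in KO and 117 and 118 in WT (log2 fold 0.27, SE 0.042, adjusted p = 6.4e-09), so that KO lies highest and WT lowest. The 631 X-linked genes tested had a median log2 fold of 0.87 in KO, with 428 higher and 67 lower, and the 16324 autosomal genes had a median of 0.0046. Hnrnpul1, an hnRNP U relative with a part in the DNA damage response, stood at 182 and 176 CPM in KO+Smad7, 246 and 244 in KO and 235 and 228 in WT (log2 fold 0.083, SE 0.037, adjusted p = 0.041). Its call was lost under RLE scaling (adjusted p = 0.54), under DESeq2 (0.55) and without KO replicate 1 (0.14), WT replicate 1 (0.067) or WT replicate 2 (0.28), and its sign changed with offsets for GC content and length (−0.083).

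**Figure D2:**
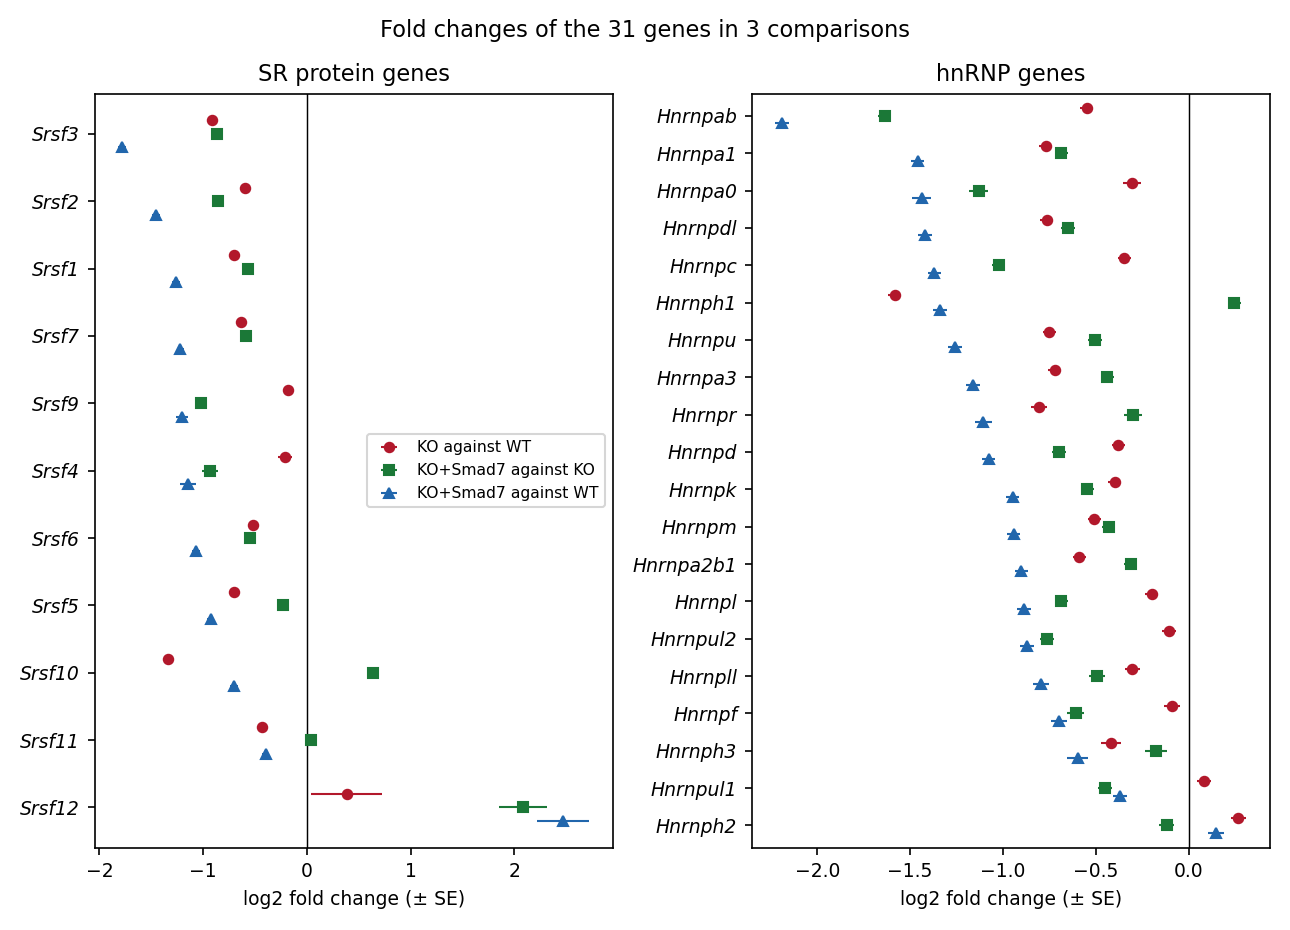
Log2 fold change, with its standard error, of each SR protein gene (left) and hnRNP gene (right) for KO against WT (circles), KO+Smad7 against KO (squares) and KO+Smad7 against WT (triangles). Nearly all points lie left of 0, and Srsf12, Srsf10, Hnrnph1 and Srsf11 lie right of 0 for KO+Smad7 against KO, at 2.09, 0.63, 0.24 and 0.038.

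The comparison of KO+Smad7 with KO bears on what differs between knockout cells labelled Smad7-transfected and untreated knockout cells. With no mock transfection given, Smad7 and the transfection itself cannot be told apart. The libraries of these groups also differ in other ways. Genes with a count were 26358 and 27359 in KO+Smad7, against 24849 and 24777 in KO. Ribosomal protein genes took 3.5% and 3.4% of counts in KO+Smad7, against 5.0% and 5.3% in KO. The part of such library differences in the folds below was not tested. This comparison shares the KO libraries with the one above, so the values of each are given side by side and nothing is read from their likeness. Of 11 SR genes, 8 were lower in KO+Smad7, where 36.8% of all genes tested were lower, and 2 were higher, Srsf10 and Srsf12, where 37.8% of all genes were higher. Of 20 hnRNP genes, 19 were lower and 1, Hnrnph1, was higher. The median log2 fold was −0.56 for SR genes and −0.53 for hnRNP genes, beside 0.039 for all genes tested, and both stayed below 0 under RLE scaling, library size scaling and the GC and length offsets. The other 2511 genes at 100 CPM or more were 70.9% lower and 22.1% higher, with a median of −0.41. The share of lower SR genes was thus close to that of these abundant genes.

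Hnrnpab fell most of the 31 genes in KO+Smad7. It stood at 270.3 and 264 CPM in KO+Smad7, 839 and 822 in KO and 1232 and 1202 in WT. The KO+Smad7 libraries are 3.11-fold below those of KO, which themselves lie below WT (log2 fold −1.64, SE 0.037, adjusted p = 3.6e-84 for KO+Smad7 against KO). Hnrnpa0, an intronless relative of Hnrnpa1 that binds AU-rich elements, stood at 172 and 144 CPM in KO+Smad7, 349 and 343 in KO and 436 and 419 in WT (log2 fold −1.13, SE 0.051, adjusted p = 2.9e-16). Its KO+Smad7 libraries differ from each other by 1.19 times, which is the widest replicate gap among these hnRNP genes in that group, yet both lie below every KO library. Hnrnpc, with the values above, was 2.03-fold lower in KO+Smad7 (log2 fold −1.02, SE 0.036, adjusted p = 2.5e-60).

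Srsf9 fell most of the SR genes in KO+Smad7. It stood at 39.9 and 38.0 CPM in KO+Smad7, 77.9 and 79.8 in KO and 89.0 and 90.2 in WT (log2 fold −1.02, SE 0.055, adjusted p = 4.8e-39), so that KO lies close to WT and KO+Smad7 well below both. Srsf4 stood at 16.7 and 15.6 CPM in KO+Smad7, 32.6 and 28.9 in KO and 34.98 and 36.3 in WT (log2 fold −0.93, SE 0.081, adjusted p = 1.8e-21), with the same order of groups. Srsf3 (log2 fold −0.87, SE 0.039, adjusted p = 4.7e-47) and Srsf2 (log2 fold −0.86, SE 0.038, adjusted p = 4.7e-45) fell by a similar size, and Srsf7 (−0.58), Srsf1 (−0.56) and Srsf6 (−0.55) by less. Srsf5 (−0.23) fell least, and its log2 fold was 0.021 under library size scaling, where the median of all genes moved to 0.29.

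Srsf12 and Srsf10, a pair of related SR proteins, were higher in KO+Smad7. Srsf12 had 68 and 101 reads in KO+Smad7, 18 and 27 in KO and 14 and 17 in WT, which are 4.39 and 5.46 CPM in KO+Smad7, 0.918 and 1.42 in KO and 0.826 and 0.951 in WT. The KO and WT libraries overlap and both KO+Smad7 libraries lie above them (log2 fold 2.09, SE 0.23, adjusted p = 1.9e-15). A filter that requires 1 CPM in 4 libraries removes this gene. Srsf10 was 1.55-fold higher in KO+Smad7 than in KO (log2 fold 0.63, SE 0.044, adjusted p = 3.3e-25) and remained below WT (log2 fold −0.70, SE 0.041, adjusted p = 4.1e-31). Srsf11 stood between 251.8 and 269 CPM in the KO+Smad7 and KO libraries, which overlap, and did not pass (log2 fold 0.038, SE 0.038, adjusted p = 0.36). It was above 0 and passed under library size scaling (0.29) and with the filter that requires 1 CPM in 4 libraries (0.14).

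Hnrnph1 was slightly higher in KO+Smad7 than in KO (log2 fold 0.24, SE 0.037, adjusted p = 1.6e-09), while it stayed 2.53-fold below WT (log2 fold −1.34, SE 0.036, adjusted p = 3.5e-75). Its direction turned with offsets for GC content and length, where the log2 fold was −0.29 (adjusted p = 1.2e-15). The remaining hnRNP genes were lower in KO+Smad7, namely Hnrnpul2 (−0.76), Hnrnpd (−0.70), Hnrnpa1 (−0.69), Hnrnpl (−0.69), Hnrnpdl (−0.65), Hnrnpf (−0.61), Hnrnpk (−0.55), Hnrnpu (−0.51), Hnrnpll (−0.49), Hnrnpul1 (−0.45), Hnrnpa3 (−0.44), Hnrnpm (−0.43), Hnrnpa2b1 (−0.31), Hnrnpr (−0.30), Hnrnph3 (−0.18) and Hnrnph2 (−0.12). Under library size scaling the log2 folds of Hnrnph2 and Hnrnph3 were 0.13 (adjusted p = 0.0033) and 0.070, and Hnrnpa2b1 (−0.066, adjusted p = 0.069) and Hnrnpr (−0.052, adjusted p = 0.32) missed the threshold. Hnrnph2 and Hnrnph3 also missed it under DESeq2 (adjusted p = 0.065 and 0.082) and with the filter that requires 1 CPM in 4 libraries (0.71 and 0.22), and Hnrnph3 without KO+Smad7 replicate 2 (0.059).

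**Figure D3:**
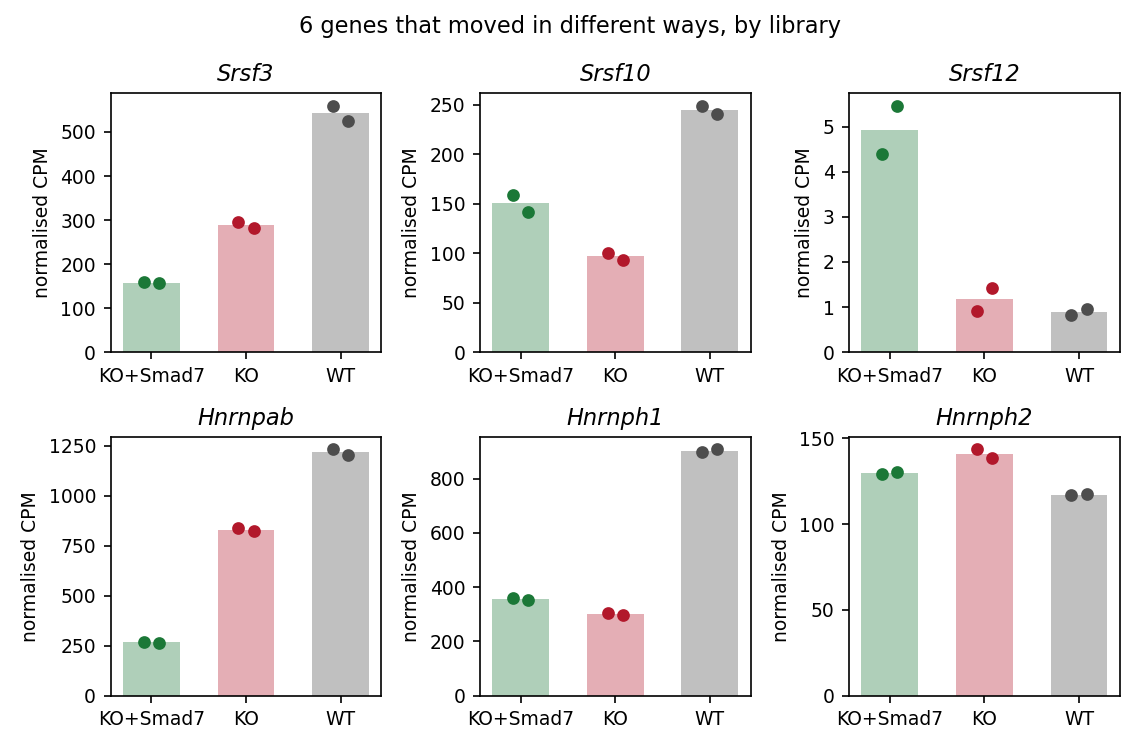
Normalised CPM of Srsf3, Srsf10, Srsf12, Hnrnpab, Hnrnph1 and Hnrnph2 in KO+Smad7, KO and WT; points are libraries and bars their mean. Srsf3 and Hnrnpab are lowest in KO+Smad7 and highest in WT, Srsf10 and Hnrnph1 are lowest in KO, and Srsf12 is highest in KO+Smad7.

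Between KO+Smad7 and WT, 10 of 11 SR genes and 19 of 20 hnRNP genes were lower, where 38.8% of all genes tested were lower, and 1 of each family was higher, Srsf12 and Hnrnph2, where 43.1% of all genes were higher. The median log2 fold was −1.15 for SR genes and −1.01 for hnRNP genes, beside 0.086 for all genes tested, and it was −0.75 and −0.62 under library size scaling, where the median of all genes was 0.48. The 2511 other genes at 100 CPM or more were 73.1% lower and 21.03% higher, with a median of −0.60. The largest falls were in Hnrnpab (−2.19), Srsf3 (−1.78), Srsf2 (−1.46), Hnrnpa1 (−1.46), Hnrnpa0 (−1.44) and Hnrnpdl (−1.42). Hnrnpab was 4.56-fold lower and Srsf3 3.44-fold lower. The smallest falls were in Hnrnpul1 (−0.37), Srsf11 (−0.40) and Hnrnph3 (−0.60). Hnrnpul1 was at 0.021 and Srsf11 at −0.0063 under library size scaling, and neither passed there. Hnrnph2 was barely above WT (log2 fold 0.15, SE 0.043, adjusted p = 0.0011), a call that DESeq2 did not make. The 631 X-linked genes tested had a median log2 fold of 1.07 in KO+Smad7 against WT, with 479 higher and 87 lower. The median of the autosomal genes was 0.043. Srsf12 was 5.55-fold higher (log2 fold 2.47, SE 0.25, adjusted p = 1.7e-17).

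Ratios of close relatives within a library do not depend on the scaling between libraries. The ratio of Hnrnph1 to Hnrnph2 in TPM was 2.09 and 2.02 in KO+Smad7, 1.58 and 1.61 in KO and 5.75 and 5.78 in WT. These 2 proteins are nearly identical, and the WT libraries stand apart from all knockout libraries. The ratio of Hnrnpa1 to Hnrnpa2b1 was 0.802 and 0.850 in KO+Smad7, 1.05 and 1.09 in KO and 1.197 and 1.23 in WT, and that of Srsf3 to Srsf7 was 0.287 and 0.302 in KO+Smad7, 0.362 and 0.357 in KO and 0.449 and 0.421 in WT. Both ratios were lowest in KO+Smad7 and highest in WT. The ratio of Hnrnpul1 to Hnrnpul2 ran the other way, at 0.579 and 0.558 in KO+Smad7, 0.452 and 0.466 in KO and 0.406 and 0.399 in WT. That of Hnrnpl to Hnrnpll, at 7.23 and 7.74 in KO+Smad7, 8.37 and 8.77 in KO and 7.98 and 7.96 in WT, moved least between groups among the 6 pairs examined. The ratio of Hnrnpd to Hnrnpdl was 0.871 and 0.889 in KO+Smad7, 0.928 and 0.890 in KO and 0.712 and 0.679 in WT, with WT below all knockout libraries.

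The annotation bears on what a count per gene can show for these families. A transcript annotated as a target of nonsense-mediated decay is listed for 9 of 11 SR genes (81.8%) and 10 of 20 hnRNP genes (50%), against 27.3% of 13898 protein-coding genes tested. A transcript with a retained intron is listed for 8 SR genes (72.7%) and 14 hnRNP genes (70%), against 56.4%. The median number of annotated transcripts was 7 for SR genes and 8 for hnRNP genes, against 5 for the protein-coding genes tested. The shares were not adjusted for this number. The counts add all transcripts of a gene, so productive mRNA and decay targets were not separated. Several genes share exons with neighbours, and whether strand was used in counting was not given in the sources used here. Hnrnpab shares 29.1% of its exonic bases with Phykpl on the opposite strand, whose log2 fold was −0.22 for KO+Smad7 against KO (adjusted p = 0.087) and −0.59 for KO against WT. Srsf4 shares 43.0% with the transcript Gm12992, which had 91 reads over all 6 libraries. Srsf2 shares 15.6% with Mettl23, whose log2 folds were −0.41 for KO against WT and −0.50 for KO+Smad7 against KO, and 9.74% with Mfsd11, which was higher in both (0.47 and 0.76) where Srsf2 was lower. Hnrnpu shares 6.93% with Cox20, which was lower in KO against WT (−1.90) and, unlike Hnrnpu, higher in KO+Smad7 against KO (1.67). Hnrnpm shares 14.7% with March2 on the same strand, a symbol with no match in the count table. The pseudogene symbols Srsf3-ps, Hnrnpa1l2-ps and Hnrnpa1l2-ps2 had at most 20 reads in any library. How reads shared with such copies were assigned was not given in the sources used here, and values of members with near-identical copies are therefore uncertain.

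Proteins that act with or on the SR proteins and hnRNPs were examined as 10 lists of RNA processing genes. Their counts stand beside 33.3% of all genes tested lower and 34.5% higher in KO against WT, and 36.8% lower and 37.8% higher in KO+Smad7 against KO. Among the 2511 other genes at 100 CPM or more, 58.9% were lower in KO against WT and 70.9% in KO+Smad7 against KO. Splicing kinases and phosphatases set the phosphorylation of the SR tails. Of 10 tested, 7 were lower and 3 higher in KO against WT (median log2 fold −0.25), and 4 were lower and 3 higher in KO+Smad7 against KO (0.016, but −0.22 with GC and length offsets). Clk1, which phosphorylates SR proteins in the nucleus, averaged 145 CPM in KO+Smad7, 77.8 in KO and 178 in WT. It fell in KO against WT (log2 fold −1.195, SE 0.043, adjusted p = 9.0e-59). KO+Smad7 exceeded KO (log2 fold 0.90, SE 0.044, adjusted p = 7.5e-44), where the GC and length offsets gave −0.037. Prpf4b, a kinase of the spliceosome, had log2 folds of −1.09 in KO against WT and 0.20 in KO+Smad7 against KO, and the offsets turned the second to −0.23.

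Of 21 SR-related genes, 19 were lower and 1 higher in KO against WT (median −0.68), and 14 were lower and 6 higher in KO+Smad7 against KO (−0.41), a share of lower genes close to that of the abundant genes. Rsrc2, an arginine-serine rich coiled-coil protein, averaged 132 CPM in KO+Smad7, 69.2 in KO and 219 in WT (−1.67 for KO against WT and 0.93 for KO+Smad7 against KO). Bclaf1, an RNA-binding partner of the export and splicing machinery, had log2 folds of −1.65 and 0.38 in the same comparisons, and the second was −0.37 with GC and length offsets. Of 17 genes for hnRNPs and related proteins under other symbols, 15 were lower and 1 higher in KO against WT (−0.32), and 10 were lower and 2 higher in KO+Smad7 against KO (−0.36). Taf15, an RNA-binding protein that also associates with the transcription machinery, fell in KO (log2 fold −0.85, SE 0.038, adjusted p = 3.3e-48) and did not pass in KO+Smad7 against KO (log2 fold −0.078, SE 0.04, adjusted p = 0.068). It passed as lower there with a replicate block (adjusted p = 0.035), with no filter on low counts (0.0086) and without KO+Smad7 replicate 2 (0.031), KO replicate 2 (0.027), WT replicate 1 (0.031) or WT replicate 2 (0.027), and as higher under library size scaling (log2 fold 0.17, adjusted p = 4.9e-05).

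Of 23 other splicing regulators, 15 were lower and 5 higher in KO against WT (median −0.46), while 7 were lower and 13 higher in KO+Smad7 against KO (0.26, but −0.093 with GC and length offsets). Mbnl2, a muscleblind protein that shifts splicing towards differentiated patterns, averaged 109 CPM in KO+Smad7, 14.0 in KO and 15.7 in WT (log2 fold 2.96, SE 0.065, adjusted p = 1.6e-85 for KO+Smad7 against KO). Sfpq, a paraspeckle protein, fell in both comparisons (−0.78 for KO against WT and −0.89 for KO+Smad7 against KO).

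Core factors that SR proteins recruit formed 2 further lists. Of 15 genes of 3′ splice site and U2 recognition, 13 were lower in KO against WT (median −0.36), where Sf3b2 (−0.040, adjusted p = 0.32) and Snrpa1 did not pass, and 15 in KO+Smad7 against KO (−0.86). Of 10 genes for Sm and U1 proteins, 9 were lower in KO against WT (−0.46), where Snrpa (−0.027, adjusted p = 0.60) did not pass, and 10 in KO+Smad7 against KO (−0.77). No gene of these 2 lists was higher in either comparison by edgeR, also at an unadjusted p under 0.05, or by DESeq2, and the medians kept their sign under RLE scaling, library size scaling and the offsets. U2af1, which reads the AG at the 3′ splice site, averaged 71.5 CPM in KO+Smad7, 180.0 in KO and 283 in WT (log2 fold −1.33, SE 0.043, adjusted p = 1.5e-63 for KO+Smad7 against KO). Snrpa1, a U2 protein, fell in KO+Smad7 against KO (−1.28) and did not pass in KO against WT (−0.071, adjusted p = 0.12), although it passed as lower there under RLE scaling (adjusted p = 0.0048) and with GC and length offsets (0.0011). The Sm proteins Snrpd2 (−0.31 for KO against WT and −1.14 for KO+Smad7 against KO) and Snrpd3 (−0.78 and −0.94) fell in both.

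Of 12 genes of the exon junction complex and mRNA export, 12 were lower in KO against WT (median −0.56), and 9 were lower and 2 higher in KO+Smad7 against KO (−0.82). Rbm8a, a core protein of the exon junction complex that also sits in the list of related hnRNPs, had log2 folds of −0.76 and −1.37. Thoc2, the scaffold of the THO export complex, averaged 355 CPM in KO+Smad7, 72.4 in KO and 216 in WT (log2 fold 2.29, SE 0.042, adjusted p = 8.3e-93 for KO+Smad7 against KO). Of 12 genes of nonsense-mediated decay, 7 were lower and 2 higher in KO against WT (−0.24), and 7 were lower and 3 higher in KO+Smad7 against KO (−0.20, but 0.053 under library size scaling). Upf2, which bridges the decay factors Upf1 and Upf3b, averaged 94.4 CPM in KO+Smad7, 38.2 in KO and 118 in WT (log2 fold 1.30, SE 0.053, adjusted p = 1.8e-52 for KO+Smad7 against KO). Upf3b, which is X-linked, was higher in KO+Smad7 than in KO (log2 fold 1.02, SE 0.045, adjusted p = 1.9e-46) and did not pass in KO against WT (−0.10, adjusted p = 0.053). In KO against WT it passed as lower with a replicate block (adjusted p = 0.028), under RLE scaling (0.0023) and without KO replicate 1 (0.0029), and as higher with GC and length offsets (log2 fold 0.26, adjusted p = 1.2e-07).

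Of the 3 nuclear import receptors, Tnpo3, the carrier of phosphorylated SR proteins, had log2 folds of −0.081 (adjusted p = 0.037) in KO against WT and −0.70 in KO+Smad7 against KO. The first missed the threshold when any single library was left out (adjusted p between 0.070 and 0.18), with no filter on low counts (0.15) and with the 4 compared libraries alone (0.089). Tnpo1, the carrier of Hnrnpa1 and related hnRNPs, had −0.84 and 0.11, and the offsets turned the second to −0.32. Over the 3 receptors, 2, Tnpo3 included, were lower in KO against WT (median −0.081, but 0.063 under library size scaling), and 1 was lower and 2 higher in KO+Smad7 against KO (0.092, but −0.32 with the offsets). Of 8 genes of arginine methylation, the modification that marks the glycine-arginine repeats of hnRNPs, 6 were lower in KO against WT (−0.39), and 7 were lower and 1 higher in KO+Smad7 against KO (−0.76). Prmt1, the main enzyme of asymmetric arginine methylation, averaged 178 CPM in KO+Smad7, 396 in KO and 629 in WT (log2 fold −1.15, SE 0.039, adjusted p = 3.3e-61 for KO+Smad7 against KO). Prmt5, which methylates Sm proteins symmetrically, had −0.17 in KO against WT and −1.15 in KO+Smad7 against KO.

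**Figure D4:**
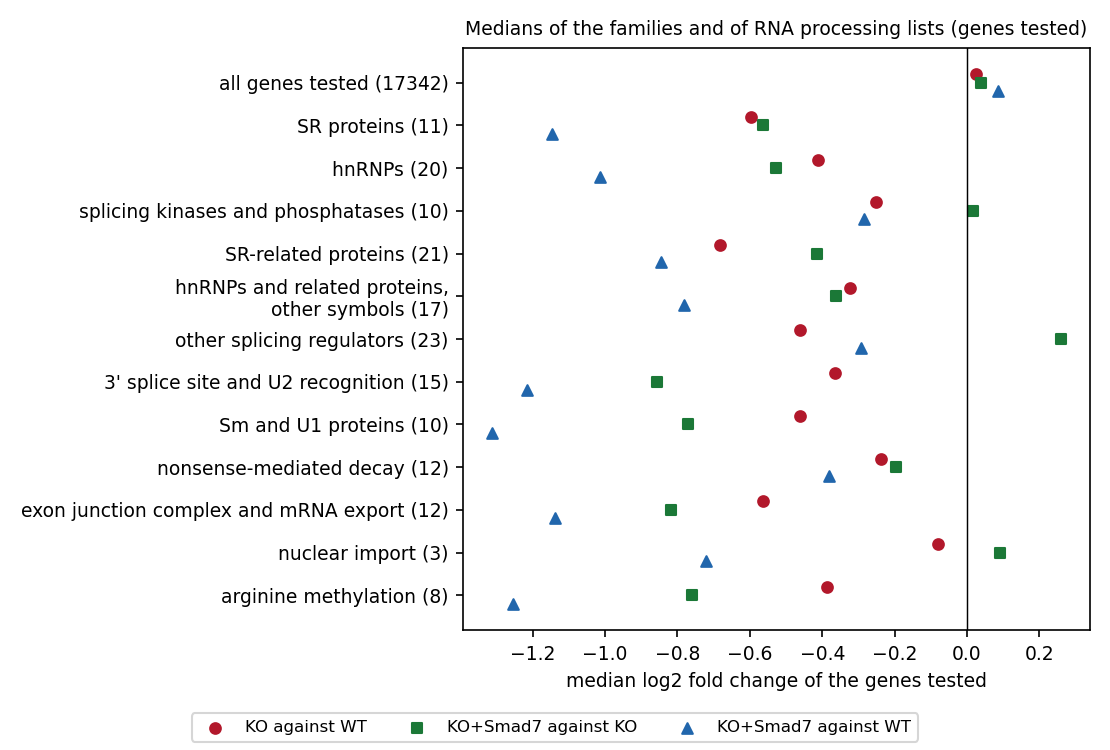
Median log2 fold change of all genes tested, of both families and of the 10 RNA processing lists, with the number of genes tested in brackets, for KO against WT (circles), KO+Smad7 against KO (squares) and KO+Smad7 against WT (triangles). The medians of all genes lie at 0.024, 0.039 and 0.086, and those of SR genes at −0.60, −0.56 and −1.15.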

How the data were processed

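Raw read counts per gene symbol were deposited by the authors, 1 column per library. The submitters' processing notes name STAR, featureCounts 1.6.3 and the builds mm10 and GRCm38 without saying what each was used for, and the annotation release was not given in the sources used here. Of the deposited columns, 6 matched a sample's labels, and 2 that matched none were left out, so the KO+lncSmad7 samples were not analysed here and a fit planned for more groups covered 3. Counts were filtered with filterByExpr (17342 genes left), scaled with TMM factors and fitted in 1 model of 3 groups with 3 residual degrees of freedom by edgeR's robust quasi-likelihood method (edgeR 4.0.16, limma 3.58.1, R 4.3.3). P-values were adjusted by the Benjamini-Hochberg method over the whole table of genes tested, 0.05 was the threshold, and SE is the size of the log2 fold divided by the square root of F. Replicates differed by more than sampling noise (chi-square per degree of freedom between 1.57 and 1.89), and the common biological coefficient of variation was 2.47%. Counting error is small at this depth for genes with many reads. It is larger for Srsf12 and, in KO+Smad7, for Srsf4 (259 and 288 reads), Srsf9 (619 and 702) and Hnrnph3 (738 and 842).

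TPM used exonic lengths of GENCODE release 21 (GRCm38), and promoter windows came from RefSeq (GRCm38.p6). Protein sequences were not used here. The members and the gene lists were chosen with earlier results of these data known. Each of the 31 genes is named. Libraries are given singly for the 3 greatest rises and falls past the threshold per family in the first 2 comparisons and for 9 fixed genes, and the 2 genes with the smallest adjusted p are named for each list. Sf3b2, Snrpa and the overlapping neighbours were named after their values were seen. Alternatives were RLE scaling, library size scaling, DESeq2 1.42.0, keeping all genes with a count, keeping genes with 1 CPM in 4 libraries, the 4 compared libraries alone, a replicate block, glmTreat against a fold of 1.2, offsets for GC content and exonic length (mgcv 1.9.3, values for 97.8% of genes tested), and each library left out in turn. The procedure was also run on simulated counts in which few genes changed, a setting that cannot check the scaling where many genes differ, as here.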

Additional observations from a re-analysis of the deposited data

How the results depend on the processing

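Across 15 alternatives, the counts of lower SR genes and lower hnRNP genes stayed within 1.5 times of those reported in all 3 comparisons, and the median of each family stayed below 0 under RLE scaling, library size scaling and GC and length offsets. The counts of higher genes, which are small, changed more. For KO against WT, hnRNP genes called higher were 1 under RLE scaling, DESeq2 and GC and length offsets, 0 with glmTreat, and between 1 and 2 when a library was left out, and list genes called higher were 7 under DESeq2 and 3 with glmTreat, against 12. For KO+Smad7 against KO, hnRNP genes called higher were 2 under library size scaling and 0 with glmTreat and with GC and length offsets, and DESeq2 called 4349 genes of the whole table higher, against 6558. For KO+Smad7 against WT, SR genes called higher were 0 with the filter of 1 CPM in 4 libraries, which removes Srsf12, hnRNP genes called higher were 0 under DESeq2 and with glmTreat, and list genes called higher were 33 under library size scaling, 10 under DESeq2, 9 with glmTreat and 8 with GC and length offsets, against 16.

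Signs turned as follows, and the cause was not tested. In KO against WT, library size scaling gave 0.053 for Hnrnpf, 0.036 for Hnrnpul2, 0.073 for Snrpa1, 0.042 for Upf3b and 0.063 for Tnpo3, and the GC and length offsets gave −0.083 for Hnrnpul1, 0.26 for Upf3b, which passed, and 0.0069 for Tnpo3. In KO+Smad7 against KO, library size scaling gave 0.13 for Hnrnph2, 0.070 for Hnrnph3, 0.021 for Srsf5 and 0.17 for Taf15, and the offsets gave −0.29 for Hnrnph1, −0.055 for Srsf11, −0.23 for Prpf4b, −0.037 for Clk1, −0.37 for Bclaf1 and −0.32 for Tnpo1. Taf15 was 0.025 with the filter of 1 CPM in 4 libraries. Srsf11 was −0.0032 with no filter and ranged between −0.018 and 0.055 when a library was left out. In KO+Smad7 against WT, library size scaling gave 0.021 for Hnrnpul1, 0.10 for Clk1 and 0.064 for Upf2. Library size scaling put the median of all genes at 0.17, 0.29 and 0.48 in the 3 comparisons, against 0.024, 0.039 and 0.086 with TMM factors, and the share of higher among all calls was then 61.7%, 65.7% and 68.3%, against 50.9%, 50.7% and 52.6%.

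No pairing of libraries by replicate number was seen, with correlations of their deviations between 0.0053 and 0.026 over all genes tested. Sampling noise in genes with few reads can hide a pairing in this measure. With the number as a replicate block, SR genes called lower were 10, 8 and 10 and hnRNP genes called lower 18, 19 and 19 in the 3 comparisons, the counts reported. Among the list genes named, the block added the calls of Taf15 in KO+Smad7 against KO (adjusted p = 0.035) and Upf3b in KO against WT (0.028).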
